A study of Mus musculus with 8 samples.

Results

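Cell cycle and DNA replication genes were followed in whole blood of mice held in a hypoxic chamber. The set was given as 40 probe sets of an Affymetrix mouse array, out of 45037 probe sets that are not array controls. Each was paired with 1 gene symbol and 1 known role in the cell cycle. Any other probe sets of the same genes were not read. The rule itself uses no measured value, but the members were chosen with earlier results of these data known. Shares of members set against all probe sets are therefore descriptions and not tests. The 4 hypoxia arrays carried blood of mice in a sealed chamber, where oxygen was brought from 21% to 8% over 14 days and blood was taken from the vena cava after 15 days. The 4 control arrays carried vena cava blood of mice kept at room condition, for which no day of blood draw was given. Total RNA came from 500 µl of blood per hypoxia sample and 100 µl per control sample, so blood volume and group cannot be told apart. All samples were labelled in the same way, by 1 round of amplification from an oligo(dT) primer. Strain, sex and age were not given in the labels, and no genetic change was named in either group.

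A cell that divides first licenses its replication origins with the Mcm2 to Mcm7 helicase, then copies its DNA with the help of the sliding clamp Pcna and of enzymes that supply deoxynucleotides. It then builds cyclin A and cyclin B complexes with Cdk1, assembles a spindle, and leaves mitosis when the anaphase-promoting complex marks the cyclins for destruction. In healthy adult blood most circulating cells do not divide. Dividing blood precursors sit in bone marrow and, in mice, also in the spleen, and young red cells that enter the blood without a nucleus still hold RNA made earlier. In such bulk samples more cells of a type and more RNA per cell cannot be told apart.

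Values are the deposited linear intensities, which were scaled so that every array had a trimmed mean of 500.0. The median intensity ran from 229.9 to 244.6 on hypoxia arrays and from 162.8 to 201.6 on control arrays. The array also reads bacterial and phage spike-in RNA, the hybridization controls, which had a mean log2 intensity of 17.84 to 18.49 on hypoxia arrays and of 17.05 to 17.52 on control arrays. Their part in the results was not tested, but the differences below are given again with the arrays centred on them wherever that changes a call or a direction. Of the 8 lists of cell type markers, 39 of the 40 genes could not be read, because the sources used here pair no probe set with them. The labelled tissue was therefore not checked against its markers. The transferrin receptor Tfrc, 1 of 10 genes on the erythroid list, has a control probe set that carries its name. It stood at 1863, 751, 1623 and 778 on hypoxia arrays 1 to 4 and at 484, 194, 354 and 328 on control arrays 1 to 4. That is a log2 difference of 1.84 (exact permutation p = 0.0286, two-sided, the smallest that 4 against 4 arrays allow). Such a separation was not particular to Tfrc among the control probe sets read. That of Gapdh, a gene on none of the lists, ran from 53900 to 80125 in hypoxia and from 23310 to 30661 in control. That of Actb overlapped, at 40645 to 62646 in hypoxia and 47095 to 62254 in control. Only the 3′ control probe set of each of these genes was read. The part of Tfrc in the results below was not tested.

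Transcripts of 5 cell cycle genes rose in hypoxic blood: Ube2c, Nusap1, Mki67, Ccnb2 and Birc5. All of them have a role in mitosis or the exit from it, as do most of the 40 genes. Mki67 is also the usual marker of dividing cells. Other genes of mitosis were not called, among them Ccnb1, Cdc20, Cenpa and all 6 mitotic kinases. The rises ran from 5.56-fold for Nusap1 to 7.98-fold for Ube2c, and the sizes for Birc5 and Ccnb2, 14.7-fold and 41.1-fold on the deposited scale, rest on dim control signal. For all 5 genes the 4 hypoxia arrays lay above the 4 control arrays. None of the 40 genes fell at the threshold used, an adjusted p under 0.05 in limma. At an unadjusted p under 0.05, 14 of the 40 were higher, against 13.9% of all probe sets, and 3, Pcna, Mcm5 and Mcm6, were lower, against 11.6% of all probe sets. The members called higher were 5 of 40, or 12.5%, against 3.65% of all probe sets, and the members called lower were 0 of 40, against 2.6% of all probe sets. Centred on the hybridization controls, 4 members were called higher, against 1.32% of all probe sets, and 4 lower, against 13.6%, so the lower calls are no more frequent among the members than over the array. That centring moved the median difference of all probe sets to -0.74, from 0.19 on the deposited scale.

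Ube2c (probe set 1452954_at) encodes the E2 ubiquitin-conjugating enzyme of the anaphase-promoting complex. Its intensity was 56601, 39435, 56000 and 70089 on hypoxia arrays 1 to 4, and 3366, 10455, 7326 and 8360 on control arrays 1 to 4. The lowest hypoxia array was more than 3 times the highest control array. The log2 difference was 3.00 (SE 0.46, 95% interval 1.95 to 4.04), a 7.98-fold rise with a limma adjusted p of 0.0156. The call was lost without control 3, where the adjusted p was 0.0504 at a difference of 3.03. On every hypoxia array at most 354 of the 45037 probe sets were as bright or brighter, against at most 1827 on the control arrays. Such a rank describes the signal of this probe set and not the abundance of its transcript beside others.

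Nusap1 (1416309_at) encodes a microtubule-binding protein that bundles spindle fibres around chromosomes. It read 25934, 16380, 25564 and 29436 on hypoxia arrays 1 to 4, against 2464, 6125, 4432 and 5016 on control arrays 1 to 4. The groups were far apart, and the 8 arrays fell in the same order as for Ube2c, from control 1 at the bottom to hypoxia 4 at the top. Its log2 difference was 2.47 (SE 0.42, limma adjusted p = 0.0198). Without control 1, control 3, hypoxia 1 or hypoxia 3 the adjusted p lay just above the threshold, at 0.0551, 0.0606, 0.0508 and 0.0528, with differences of 2.21 to 2.49. Centred on the hybridization controls, the difference was 1.54 and no longer called.

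Mki67 (1426817_at) encodes the Ki-67 protein, which coats mitotic chromosomes and is the usual tissue marker of dividing cells. Hypoxia arrays 1 to 4 gave 12935, 7382, 12622 and 11643, and control arrays 1 to 4 gave 1596, 1342, 1275 and 2334. Every hypoxia array was more than 3 times the highest control. On the log2 scale the groups differed by 2.78 (SE 0.39), or 6.85-fold, with a limma adjusted p of 0.0132. It was called without any 1 of the 8 arrays, at adjusted p-values of 0.0179 to 0.0486, and under all 4 scalings.

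Ccnb2 (1450920_at), 1 of the mitotic B-type cyclins that switch on Cdk1, showed the widest gap in log2 intensity of all 40 genes. Its hypoxia intensities were 2422, 1312, 2314 and 2359, and its control intensities 40.1, 128, 152 and 7.75. All hypoxia values lay well above the highest control value, and all control values lay under the median of their array. Hypoxia exceeded control by 5.36 on the log2 scale, or 41.1-fold (SE 0.91, limma adjusted p = 0.0194). Control 4 lay in the dimmest 10% of its array, and without it the difference was 4.47, or 22.1-fold. With 100 added to each intensity before log2 it was 3.64, or 12.5-fold, and in the authors' deposited table it was 3.65. Without control 1, hypoxia 1 or hypoxia 3 the adjusted p was 0.0606, 0.0521 and 0.0542. The related cyclin Ccnb1, on its own probe set, gave 494, 444, 475 and 356 in hypoxia and 402, 193, 450 and 210 in control, groups that overlapped. Its log2 difference of 0.58 (95% interval -0.37 to 1.54) was not called. The difference of Ccnb2 exceeded it by 4.78, a gap that no shift of whole arrays alters. An offset of 100 did alter the gap, with Ccnb2 at 3.64 and Ccnb1 at 0.44.

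Birc5 (1424278_a_at), or survivin, the inhibitor-of-apoptosis family member of the chromosomal passenger complex, read 1356, 431, 819 and 926 in hypoxia and 38.7, 12.3, 124 and 163 in control. The lowest hypoxia array was above the highest control array by more than 2 times. The log2 difference was 3.87 (SE 0.84, limma adjusted p = 0.0365), with 2.41 after an offset of 100 and 1.97 in the authors' deposited table. Of the 8 fits without 1 array, the call held in 2, without control 4 and without hypoxia 2. The other 6 gave adjusted p-values of 0.0652 to 0.0918. Control 2 lay in the dimmest 10% of its array, and without it the difference was 3.15, or 8.85-fold, against 4.39 without control 4. In all 5 genes that rose, hypoxia 2 was the lowest of the hypoxia arrays. Over the 40 genes it was the lowest hypoxia array in 14 and the highest in 1.

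**Figure D1:**
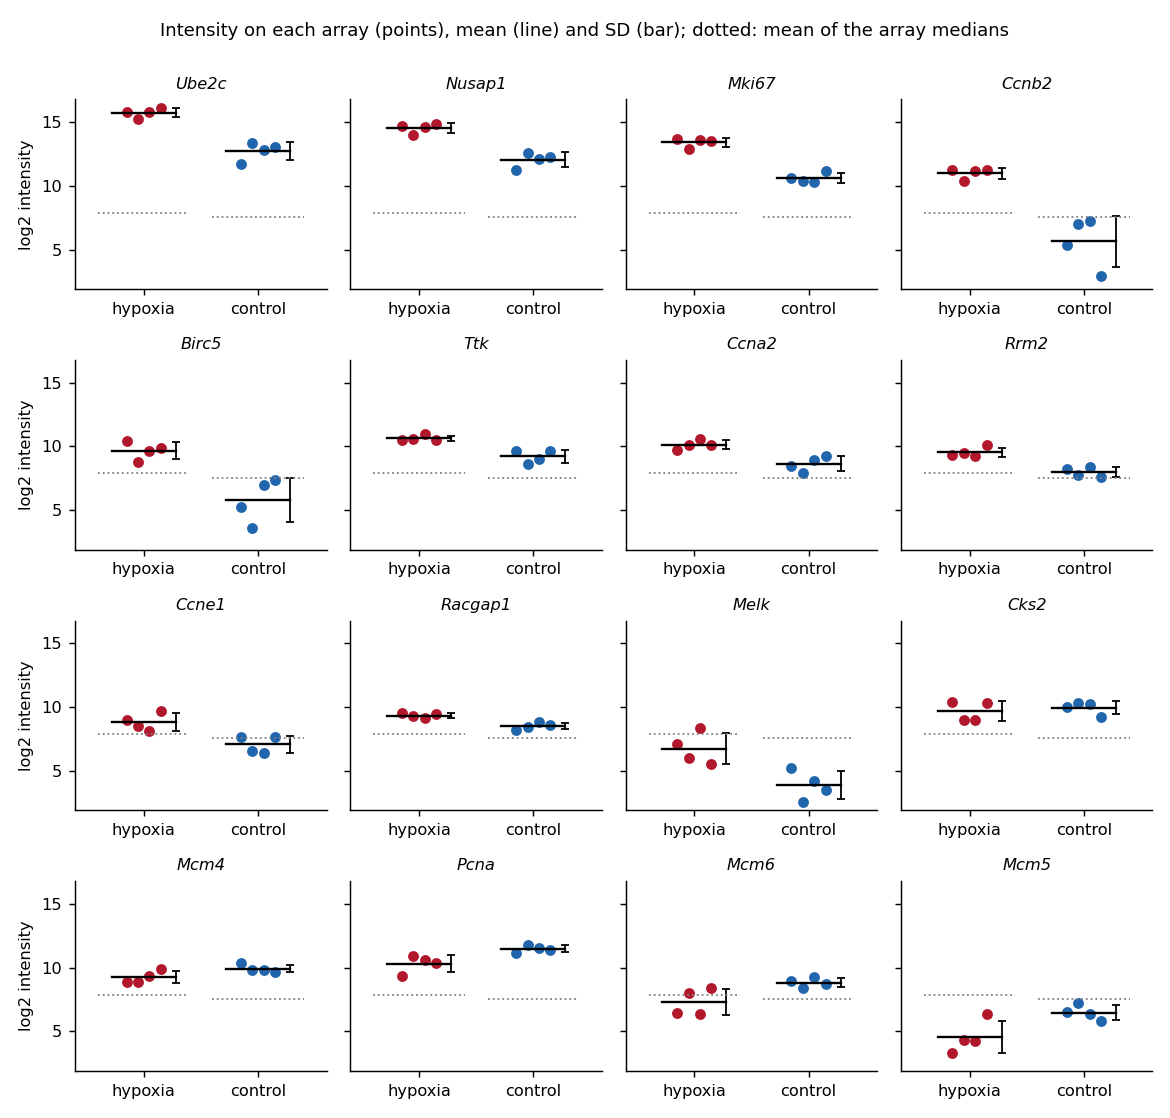
Log2 intensity of 16 cell cycle genes on each array, with hypoxia at the left and control at the right of each panel. Points are arrays, lines are means, bars are SDs (n = 4 each), and the dotted line is the mean of the array medians; the upper row holds Ube2c, Nusap1, Mki67 and Ccnb2 with groups far apart, and the bottom row holds Mcm4, Pcna, Mcm6 and Mcm5 with hypoxia means under control means.

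The promoters of these 5 genes are shown with those of Pcna and Mcm6, since late and early cell cycle genes are known to be driven through different promoter elements. In textbook terms, many genes of mitosis carry a CHR element, read by the MuvB complexes, beside CCAAT boxes, read by NF-Y. Many genes of replication carry E2F sites. Each sequence runs from 250 bases before to 50 bases after the RefSeq start site of build GRCm38.p6 and is printed 5′ to 3′ on the strand of the gene. Capitals mark the CHR element, spelled TTTGAA, the CCAAT box, and the E2F site, spelled TTTGGCGC or else TTTCCCGC, each searched on both strands.
Ube2c, chr2:164769679-164769978, strand +: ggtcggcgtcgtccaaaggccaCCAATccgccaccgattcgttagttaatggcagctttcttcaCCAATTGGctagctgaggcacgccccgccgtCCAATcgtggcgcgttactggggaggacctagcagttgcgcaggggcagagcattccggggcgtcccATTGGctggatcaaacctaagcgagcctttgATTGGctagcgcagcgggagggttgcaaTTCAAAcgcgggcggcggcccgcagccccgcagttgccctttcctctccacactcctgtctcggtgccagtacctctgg
Nusap1, chr2:119618048-119618347, strand +: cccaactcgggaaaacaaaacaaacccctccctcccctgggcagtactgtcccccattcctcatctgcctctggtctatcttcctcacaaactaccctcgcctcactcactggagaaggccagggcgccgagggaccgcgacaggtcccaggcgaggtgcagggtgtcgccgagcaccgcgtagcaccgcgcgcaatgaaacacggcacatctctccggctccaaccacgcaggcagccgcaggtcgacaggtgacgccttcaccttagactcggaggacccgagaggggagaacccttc
Mki67, chr7:135716330-135716629, strand -: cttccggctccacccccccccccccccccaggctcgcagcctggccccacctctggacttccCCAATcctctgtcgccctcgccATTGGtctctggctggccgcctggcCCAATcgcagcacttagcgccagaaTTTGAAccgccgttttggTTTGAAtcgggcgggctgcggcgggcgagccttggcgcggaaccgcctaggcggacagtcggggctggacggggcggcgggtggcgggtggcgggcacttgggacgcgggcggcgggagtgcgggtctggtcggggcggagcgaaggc
Ccnb2, chr9:70421505-70421804, strand -: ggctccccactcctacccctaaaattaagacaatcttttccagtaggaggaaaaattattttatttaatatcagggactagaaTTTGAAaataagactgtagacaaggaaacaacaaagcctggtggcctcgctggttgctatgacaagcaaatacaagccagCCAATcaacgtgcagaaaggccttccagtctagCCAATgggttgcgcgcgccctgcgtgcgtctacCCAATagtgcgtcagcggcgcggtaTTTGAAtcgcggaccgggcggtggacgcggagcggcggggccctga
Birc5, chr11:117848987-117849286, strand +: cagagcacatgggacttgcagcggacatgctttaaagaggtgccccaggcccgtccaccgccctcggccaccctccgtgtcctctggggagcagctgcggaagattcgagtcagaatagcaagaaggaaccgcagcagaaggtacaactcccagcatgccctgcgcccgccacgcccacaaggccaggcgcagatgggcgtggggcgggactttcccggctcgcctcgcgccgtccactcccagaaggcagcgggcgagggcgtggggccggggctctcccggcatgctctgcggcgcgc
Pcna, chr2:132253131-132253430, strand -: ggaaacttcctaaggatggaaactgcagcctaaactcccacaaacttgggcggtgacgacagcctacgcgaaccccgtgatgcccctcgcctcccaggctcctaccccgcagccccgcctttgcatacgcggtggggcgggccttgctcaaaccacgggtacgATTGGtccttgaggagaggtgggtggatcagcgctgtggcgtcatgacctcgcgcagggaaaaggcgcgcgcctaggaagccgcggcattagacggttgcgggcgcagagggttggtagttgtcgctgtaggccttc
Mcm6, chr1:128359656-128359955, strand -: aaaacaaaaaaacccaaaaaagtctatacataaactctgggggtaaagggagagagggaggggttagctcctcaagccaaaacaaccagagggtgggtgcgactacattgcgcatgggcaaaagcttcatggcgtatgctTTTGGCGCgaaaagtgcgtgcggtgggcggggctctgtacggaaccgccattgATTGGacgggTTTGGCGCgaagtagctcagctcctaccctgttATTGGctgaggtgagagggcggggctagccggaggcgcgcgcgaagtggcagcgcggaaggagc

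Ube2c held 1 CHR match, 29 bases before its start site, and 6 CCAAT matches, of which 1 pair overlapped. Mki67 held 2 CHR and 3 CCAAT matches, and Ccnb2 likewise 2 CHR and 3 CCAAT matches. Nusap1 and Birc5 had none of these letters in their windows. Pcna had 1 CCAAT match and no E2F match, and Mcm6 had 2 of each of these 2 motifs. A promoter was at hand for 34 of the 40 genes, all but Aurkb, Ccna2, Ccne2, Foxm1, Kif20a and Mcm4. Both CHR and CCAAT were present in 18 of the 34, or 52.9%, against 7.97% of 27025 genes with a promoter in the table. The E2F letters were present in 3, Mcm5, Mcm6 and Mcm7, or 8.82%, against 1.80% of all genes. For comparison, ACGTG, the core of a hypoxia response element, was found in 11 of 34, or 32.4%, against 21.8% of all genes, and the erythroid factor motif AGATAA in 2, or 5.88%, against 12.7%. Among the 18 genes with CHR and CCAAT, 3 were called and 16 had a difference above 0, with a median of 1.5 and a range of -0.25 to 5.36. Among the 16 without the pair, 2 were called and 10 had a difference above 0, with a median of 0.47 and a range of -1.92 to 3.87. For CCAAT alone the order was the other way, with a median of 1.32 in the 27 genes that held it and 1.76 in the 7 that did not. Of all probe sets, 55.7% had a difference above 0 and 3.65% were called higher. The split by motif was not tested. These are letter matches in a fixed window, and binding was not measured.

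Most helicase genes and the clamp had differences below 0. Of the 5 Mcm genes, 4 had lower mean log2 intensity in hypoxia, and none was called on the deposited scale. Mcm4 gave 478, 476, 658 and 945 on hypoxia arrays 1 to 4 and 1279, 882, 917 and 811 on control arrays 1 to 4. Only hypoxia 4 reached into the control range. The log2 difference was -0.64 (SE 0.39, limma adjusted p = 0.341). Mcm6 gave 87.8, 253, 82.1 and 338 in hypoxia and 480, 345, 615 and 411 in control, groups that did not overlap, though hypoxia 4 came close to control 2. Its difference was -1.52 (SE 0.56, limma adjusted p = 0.136).

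Mcm5 read 10.1, 19.4, 18.9 and 83.0 in hypoxia, of which 3 values lay in the dimmest 10% of their array, and 90.4, 147, 81.6 and 57.3 in control. Its log2 difference of -1.92 (SE 0.67, adjusted p = 0.120) shrank to -0.56 with an offset of 100, and without hypoxia 4 it was -2.52 and called. Mcm2 and Mcm7 differed by -0.05 and 0.48, with 95% intervals of -1.27 to 1.17 and -0.97 to 1.93, and both changed sign under another setting. Centred on the hybridization controls, Mcm4, Mcm5 and Mcm6 were at -1.58, -2.85 and -2.46 and called lower, as were the 13.6% of all probe sets given above. In the authors' deposited table Mcm4 was at -1.32 with a q-value of 0%, Mcm6 at -0.35 with 4.26% and Mcm7 at 0.63 with 4.26%.

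Pcna (1417947_at), the sliding clamp of DNA polymerases, read 665, 1915, 1569 and 1289 in hypoxia and 2321, 3584, 2932 and 2698 in control. All hypoxia arrays lay under all control arrays. The log2 difference was -1.17 (SE 0.43, 95% interval -2.16 to -0.18), which did not pass in the fit of all probe sets (limma adjusted p = 0.138). It was called lower in 5 of the 10 other settings that kept all arrays, namely an offset of 100, the filter on dim probe sets, the trended prior, the authors' probe sets alone and the centring on hybridization controls. In those settings 8.08% to 17.9% of all probe sets were called lower. The centring on hybridization controls put the difference of Pcna at -2.11 (limma adjusted p = 0.0261). The authors' deposited table gave -1.48 with a q-value of 0%. The difference of Ube2c exceeded that of Pcna by 4.17 on the log2 scale, that of Mki67 by 3.94 and that of Nusap1 by 3.64. A shift of whole arrays leaves those gaps as they are, but other settings change them. Under quantile normalization Ube2c was at 2.24, Mki67 at 2.70, Nusap1 at 2.05 and Pcna at -0.94.

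Among the enzymes that supply deoxynucleotides, Rrm2, the small subunit of ribonucleotide reductase, came closest to a call. Its hypoxia intensities were 658, 708, 617 and 1083, and its control intensities 293, 219, 343 and 190. The groups did not overlap, and the log2 difference was 1.56 (SE 0.39, limma adjusted p = 0.0517). It was called in 4 of the 9 other settings that kept all arrays and tested it. Its partner Rrm1, the large subunit, read 838, 720, 681 and 512 in hypoxia and 705, 376, 331 and 665 in control, with a difference of 0.46 (95% interval -0.48 to 1.4). Tk1, the thymidine kinase of dividing cells, ranged from 30.0 to 243 in hypoxia and from 64.8 to 137 in control, and its difference was -0.06 (95% interval -1.73 to 1.62). Rrm2 thus exceeded Pcna by 2.72 and Rrm1 by 1.09 in log2 difference.

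The E cyclins, which drive Cdk2 at the start of S phase, also had unequal values. Ccne1 read 509, 359, 280 and 823 in hypoxia and 201, 95.4, 81.9 and 204 in control. All hypoxia arrays were above all controls, and the log2 difference was 1.76 (SE 0.51, limma adjusted p = 0.0772), called in 4 of the 10 other settings that kept all arrays. Ccne2 ranged from 109 to 242 in hypoxia and from 65.2 to 241 in control, with a difference of 0.28 (95% interval -1.0 to 1.56). Its sign turned under 2 scalings.

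Of the other S, G2 and M regulators, Ccna2, the cyclin A of S phase and early mitosis, read 844, 1127, 1562 and 1076 in hypoxia and 354, 243, 485 and 609 in control. These groups were separate, with a difference of 1.49 (SE 0.42, limma adjusted p = 0.0718), called in 4 of those 10 settings. Cdk1 differed by 1.76 (95% interval -0.02 to 3.54), with intensities of 184 to 541 in hypoxia and 19.5 to 209 in control. Cks2, a small partner of Cdk1, read 1357, 515, 505 and 1250 in hypoxia and 1023, 1285, 1212 and 594 in control. The groups overlapped fully, at a difference of -0.28 (95% interval -1.42 to 0.87). Foxm1, a transcription factor of G2 and M genes, was dim throughout, at 28.8 to 82.3 in hypoxia and 11.5 to 139 in control, with a difference of 0.88 (95% interval -0.89 to 2.65).

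All 6 mitotic kinases had a difference above 0 on the deposited scale, and none was called. Aurkb turned below 0 under quantile normalization and both centrings. Ttk, the Mps1 kinase of the spindle checkpoint, read 1469, 1526, 1983 and 1440 in hypoxia and 788, 388, 503 and 801 in control. The groups stood apart with little spread in hypoxia, and the difference was 1.42 (SE 0.39, limma adjusted p = 0.0662). It was called in 5 of those 10 settings, and its difference ran from 0.49, centred on the hybridization controls, to 1.59 under quantile normalization. Melk, a kinase of dividing progenitor cells, read 137, 63.4, 318 and 47.1 in hypoxia and 36.8, 5.92, 18.2 and 11.3 in control. Its difference of 2.88 (SE 0.77, adjusted p = 0.0617) rested on dim values and was 0.91 with an offset of 100. Bub1, Plk1 and Aurka differed by 1.58, 1.91 and 2.14, with overlapping groups in each. Plk1 stayed under 97 on every array. Aurkb differed by 0.18 (95% interval -2.38 to 2.75).

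In the spindle checkpoint and the anaphase-promoting complex, Ube2c was the 1 gene called. Cdc20, the coactivator that works with it, ranged from 28.9 to 398 in hypoxia and from 44.0 to 145 in control, a difference of 0.40 (95% interval -1.49 to 2.29) that lay 2.60 below that of Ube2c. Mad2l1, which holds Cdc20 in check, ranged from 307 to 514 in hypoxia and from 91.6 to 576 in control, a difference of 0.44. Bub1b, the checkpoint protein BubR1, ranged from 49.8 to 757 in hypoxia and from 9.12 to 273 in control. Its difference of 2.69 had a 95% interval of -0.41 to 5.80.

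Beside Mki67 and Birc5, the chromosome genes were Top2a and Cenpa. Top2a, the topoisomerase that untangles sister chromatids, ranged from 275 to 1181 in hypoxia and from 111 to 476 in control, a difference of 1.57 (limma adjusted p = 0.170). Cenpa, the histone variant of the centromere, ranged from 320 to 536 in hypoxia and from 457 to 586 in control, a difference of -0.25 (95% interval -1.06 to 0.55). The authors' deposited table gave Cenpa at -0.68 with a q-value of 0.147%.

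The 9 genes of spindle, motors and cytokinesis had a median difference of 1.32, and Nusap1 was the 1 among them that was called. Racgap1, a regulator of the cleavage furrow, read 732, 614, 551 and 680 in hypoxia and 294, 353, 443 and 375 in control. Its arrays were alike within groups, with SDs of 0.18 and 0.24 on the log2 scale, and its groups were separate at a difference of 0.82 (SE 0.34, limma adjusted p = 0.173). Racgap1 was called higher in 2 of the 10 other settings that kept all arrays, the filter on dim probe sets and the authors' probe sets alone. In those settings 13.3% and 14.3% of all probe sets tested were called higher. Centred on the hybridization controls, Racgap1 was at -0.12. The motor proteins Kif11, Kif20a and Kif22 had differences of 1.72, 1.67 and 0.96, with 95% intervals of -0.29 to 3.74, -0.30 to 3.64 and -0.97 to 2.90, and each moved with single arrays. Kif11 was at 1.04 without hypoxia 1, Kif20a at 2.42 without hypoxia 2 and Kif22 at 0.27 without control 2. Prc1, Ect2 and Hmmr had differences of 1.32, 1.39 and 0.75, and their 95% intervals, -0.03 to 2.66, -0.07 to 2.85 and -0.46 to 1.97, also held 0. Tacc3, a spindle protein, was the 1 gene of this group below 0, at -0.66, with 45.0 to 453 in hypoxia and 59.5 to 408 in control. In none of these last 7 genes were the groups separate.

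**Figure D2:**
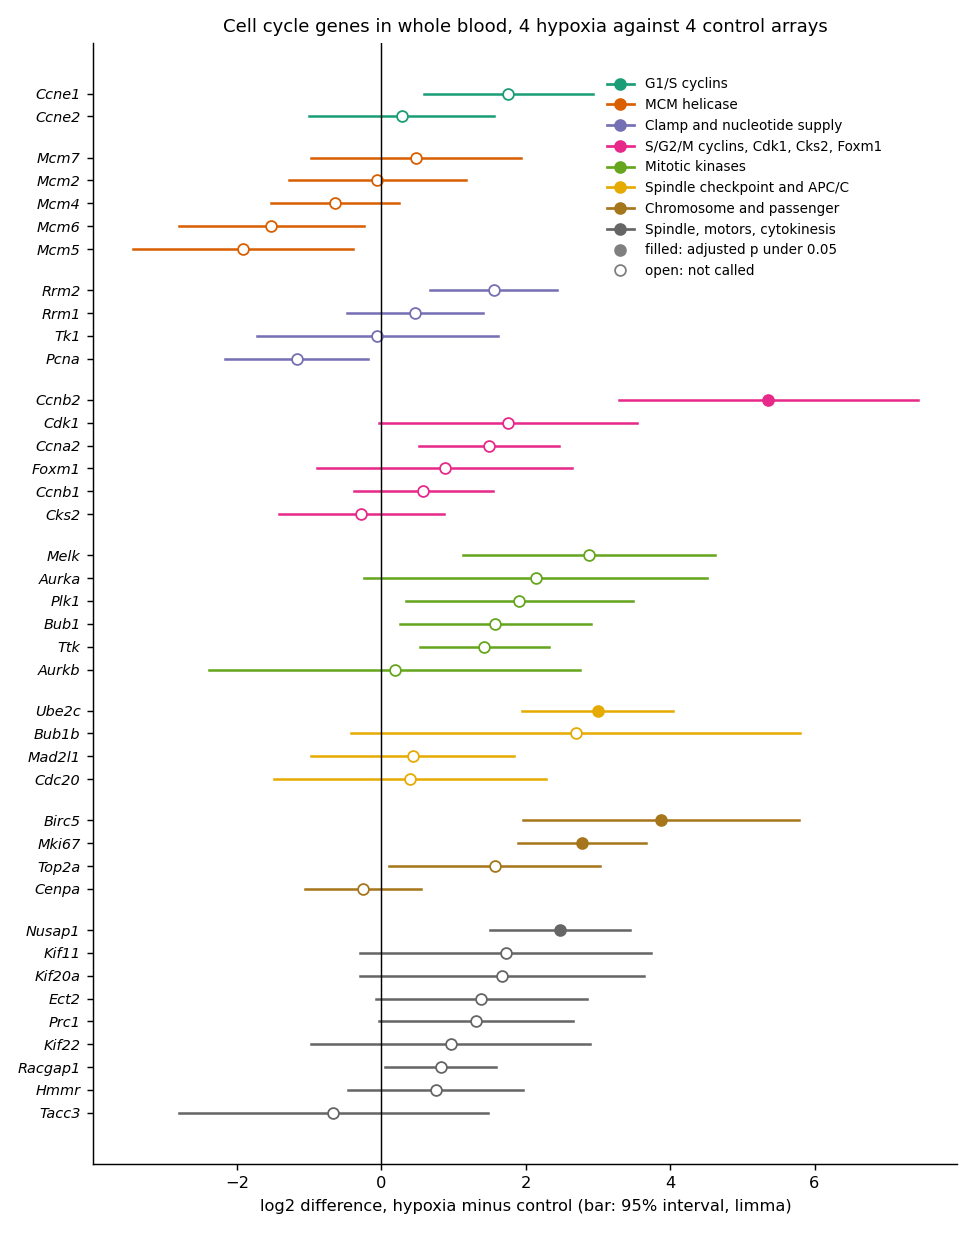
Log2 difference, hypoxia minus control, of each of the 40 genes (points) with its 95% interval from limma (bars), in groups by role from the start of the cycle at the top to its end at the bottom. Filled points mark the 5 genes with an adjusted p under 0.05, and the points furthest left are Mcm5, Mcm6 and Pcna.

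Over all 40 genes, 31 had a difference above 0, or 77.5%, against 55.7% of all probe sets, and the median was 1.14, against 0.19 for all probe sets. By role, the median was 2.17 for the chromosome genes, 1.74 for the mitotic kinases, 1.56 for the checkpoint and anaphase-promoting complex, 1.32 for spindle, motors and cytokinesis, 1.19 for the S, G2 and M regulators, 1.02 for the G1/S cyclins, 0.20 for the clamp and nucleotide supply and -0.64 for the Mcm helicase. In 11 genes the lowest hypoxia array exceeded the highest control array, that is in 27.5%, against 10.5% of all probe sets. The reverse held in 2 genes, Mcm6 and Pcna, or 5%, against 10.5% of all probe sets. Of the 35 genes not called, 27 had overlapping groups. Bright probe sets are easier to call, and 4 members, Ube2c, Nusap1, Mki67 and Pcna, were in the brightest 10% of the array. Of these, 3 were called higher, against 18.9% of all probe sets in that class, and 0 lower, against 11.7%.

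**Figure D3:**
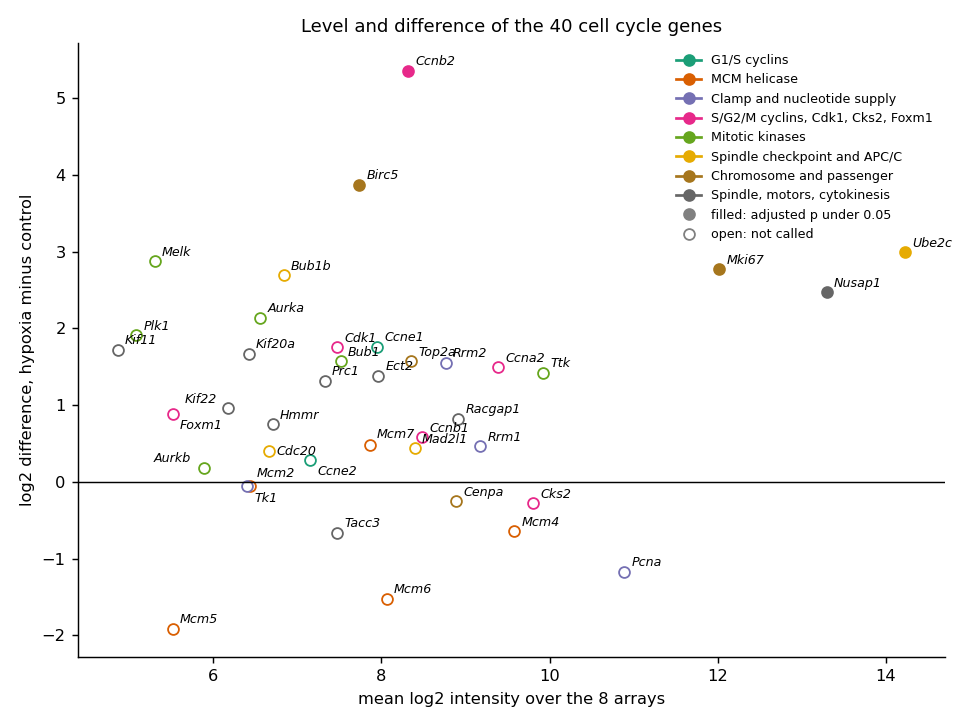
Mean log2 intensity over the 8 arrays (horizontal axis) and log2 difference, hypoxia minus control (vertical axis), of the 40 genes, coloured by role, with filled points for the 5 called genes. Ube2c, Nusap1 and Mki67 stand at the right with differences of 2.47 to 3.00, and Ccnb2 and Birc5 have larger differences at moderate mean intensity; intensities of different probe sets do not compare the abundance of their transcripts.

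The authors' deposited table, their SAM comparison of hypoxia with control made from other values, listed 26 of the 40 genes. Of the 26 listed, 17 were higher at a q-value under 5%, or 65.4%, against 20.6% of all listed probe sets. Lower were 5, or 19.2%, against 41.1% of all listed probe sets, and these were Mcm4, Mcm6, Pcna, Cenpa and Cks2. For the genes that rose here, the authors' deposited table gave log2 differences of 2.26 for Ube2c, 1.99 for Nusap1, 2.27 for Mki67, 3.65 for Ccnb2 and 1.97 for Birc5, each with a q-value of 0%. The sign was that of the fit made here for 25 of the 26, all but Tacc3. Both comparisons come from the same study, so their likeness is no independent support.

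**Figure D4:**
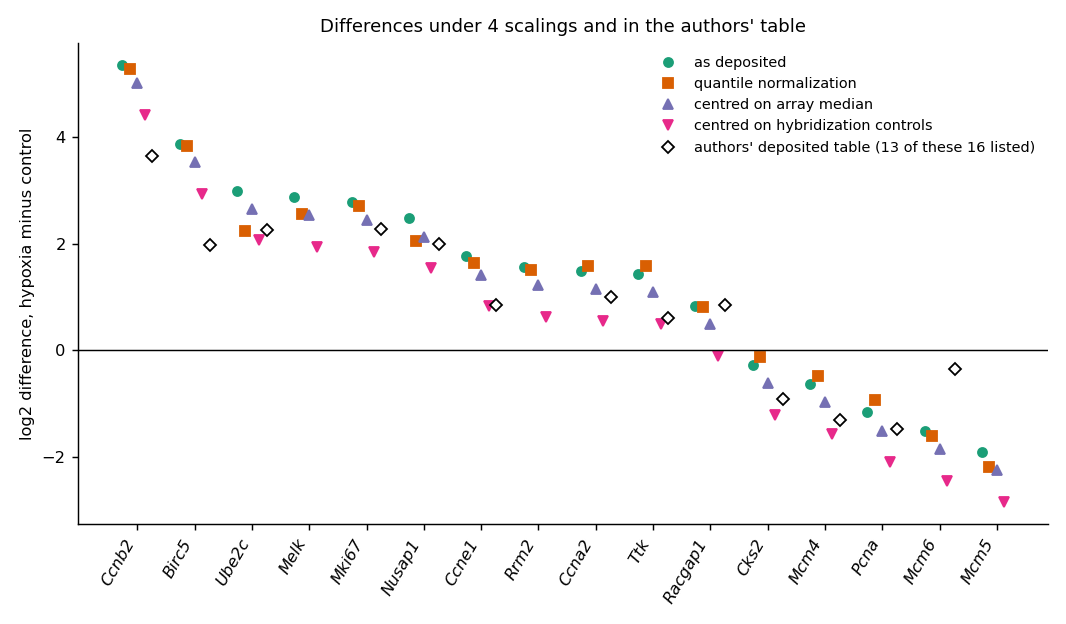
Log2 difference, hypoxia minus control, of 16 cell cycle genes under 4 scalings of the deposited intensities and in the authors' deposited table, which lists 13 of them. Ccnb2, Birc5, Ube2c, Mki67 and Nusap1 stay above 1.5 in all series shown, and Mcm4, Pcna, Mcm6, Mcm5 and Cks2 stay below 0, while Racgap1 reaches -0.12 when arrays are centred on the hybridization controls.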

How the data were processed

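Whole-blood RNA of 4 hypoxia and 4 control samples was measured on 1 array each. The authors deposited 1 linear intensity per probe set, and the rule that names the set calls these values log2, which they are not. Per the submitters' processing notes, GCRMA, RMA and Partek were used, with no role or version. Whether any of them made the deposited intensities is not stated. The trimmed mean (2% off each end) was 500.0 on every array. Per the file headers, the authors' SAM table holds a score, a fold ratio, a log2 difference and a q-value in percent.

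Before log2, 14 values under 1 were raised to 1. Without the 64 control probe sets, 45037 remained for limma 3.58.1, run in R 4.3.3 with lmFit and eBayes and no covariate, with Benjamini-Hochberg adjustment over all of them. The fit was tested on simulated data with normal noise at the spread of the control arrays. Changes were planted only in probe sets above the median level, so changes in dim probe sets were not covered. All adjusted p-values come from limma unless named otherwise. Numbers 1 to 4 name samples, and no label ties each to its own mouse, so the spread behind each p-value may be technical. Precision is limited by having 4 arrays in each group.

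Members, lists, roles and motifs were chosen with earlier results of these data known. Values on every array are given for genes called and, in each role, for the gene of highest mean intensity and of largest difference. Ccnb1, Rrm1, Ccna2, Mcm6 and Racgap1 were added after values were seen. A list of 74 further cell cycle genes and the marker lists could not be read, since 0 probe set IDs of the array appear in the gene table used for names. Promoters are from RefSeq (GRCm38.p6), matched by symbol. Alternatives were other scalings, offsets of 16 and 100, a filter on dim probe sets, other priors and weights, the replicate block, the authors' probe sets alone, and leaving out each array.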

Additional observations from a re-analysis of the deposited data

Results flagged for a closer look

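Among 80 groups of 4 arrays (40 genes in hypoxia and in control), 7 held 1 array far from the other 3 by Dixon's ratio, where chance gives about 4. In 4 of the 7 that array was hypoxia 2, and it was the low one each time. On the log2 scale Ccnb2 stood there at 10.36, against 11.18 to 11.24 on the other hypoxia arrays. Bub1 stood at 7.47, against 8.56 to 8.61, Mcm7 at 6.34, against 8.53 to 8.92, and Kif20a at 5.01, against 7.79 to 8.17. Aurkb was high in hypoxia 4, at 8.36, against 5.07 to 5.41, and its difference without that array was -0.61. Foxm1 was low in hypoxia 4, at 4.85, against 6.29 to 6.36. Tacc3 was low in control 2, at 5.90, against 8.26 to 8.67.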

How the results depend on the processing

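The count of 5 genes higher was 4 to 6 under quantile normalization, both centrings, an offset of 16 and array weights. In those settings 1.32% to 5.07% of all probe sets were called higher. It was 9 with an offset of 100 (7.72% of all probe sets), 9 with the trended robust prior (6.93%), 11 of the 25 genes kept by the filter on dim probe sets (13.3%) and 9 of the 26 in the authors' list (14.3%), so calls over the whole array grew too. Without 1 array it was 2 to 5 (0.853% to 3.04%), with 2 without control 1, control 3, hypoxia 1 or hypoxia 3. The count of 0 lower was 4 after centring on the hybridization controls (Mcm4, Mcm5, Mcm6 and Pcna, against 13.6% of all probe sets), 1 with an offset of 100 (8.08%) and 1 with the trended prior (8.24%), Pcna both times, 2 with the filter (15%) and 2 in the authors' list (17.9%), Mcm6 and Pcna both times, and 0 to 1 without 1 array (0.169% to 2.78%). With the replicate block limma called 0 genes, and also 0 of all 45037 probe sets. At an unadjusted p under 0.05 in that fit, 14 genes were higher and 2 lower. The share of all probe sets at that threshold was not computed for the block, so these counts cannot be read as a result about the members. Deviations of same-numbered arrays correlated at -0.02 to 0.01, and 0 of 8 arrays matched their own number best, so the numbers were not taken as pairs.

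Of the 40 genes, 28 kept their sign in every alternative that tested them, 16 to 18 for each gene, 21 above 0 and 7 below. Centred on the hybridization controls, values of opposite sign were -0.35 for Ccnb1, -0.75 for Aurkb, -0.46 for Mcm7, -0.54 for Cdc20, -0.19 for Hmmr, -0.12 for Racgap1, -0.50 for Mad2l1, -0.48 for Rrm1, -0.059 for Foxm1 and -0.66 for Ccne2. Centred on the median, Aurkb was at -0.16 and Ccne2 at -0.059. Aurkb was at -0.15 under quantile normalization and -0.22 with array weights. With an offset of 100 Mcm2 was at 0.011 and Tk1 at 0.10, and with an offset of 16 Tk1 was at 0.024. Without 1 array Aurkb ran from -0.67 to 0.84, Mcm2 from -0.38 to 0.20, Tk1 from -0.57 to 0.43, Cdc20 from -0.19 to 1.07, Mad2l1 from -0.12 to 0.77 and Ccne2 from -0.044 to 0.58. The cause of these changes was not tested. Dim signal limits the sizes most for Melk, Ccnb2, Plk1, Birc5, Bub1b, Mcm5 and Kif11, the genes that moved most with an offset of 100.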
